A study of Oryza sativa Japonica Group with 8 samples.

Results

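RNA of nuclei sorted from rice pistils was set against whole-cell RNA of the same organ, over the nuclear genes of the deposited count table. A pistil carries the ovule in its ovary and catches pollen on its stigma. All 8 libraries came from Oryza sativa ssp. japonica, cultivar Nipponbare, labelled wild type and untreated, with pistils taken at heading, when the panicle emerges. There were 2 libraries of nuclei, stained with propidium iodide and purified by fluorescence-activated sorting, against 6 whole-cell libraries, 3 of the upper and 3 of the lower part of the pistil. The labels state neither where the pistil was divided nor how many plants were pooled. They do not tie replicates to separate plants either, so every p-value rests on a spread among libraries that may be technical alone. The nuclei libraries were made with a SMART-Seq kit and the whole-cell libraries with NEBNext Ultra II Directional, so the compartment and the library kit cannot be told apart. Of 38726 features in the table, 37849 carried identifiers of the Rice Annotation Project (RAP, beginning with Os) and were used. Genes of the mitochondrion and the plastid and features with other identifiers were left out.

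Messenger RNA is made in the nucleus, where it is capped, spliced and given a polyA tail, and most of it is then exported to the cytoplasm, where it is translated and finally degraded. Nuclear RNA therefore holds newly made and retained transcripts, and long-lived messages such as those of glycolytic and translation proteins are known to accumulate in the cytoplasm. Fewer cells of a type and less RNA of a gene per cell cannot be told apart in bulk libraries, whether of cells or of nuclei.

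The nuclei libraries held 10857036 and 9268151 counts, against 24796307 to 35518142 in whole cells. A gene with 3 counts in 1 library stood at 0.273 and 0.377 CPM (the counts of a gene scaled to the size of its library, by the TMM method) in nuclei replicates 1 and 2, against 0.0754 to 0.136 CPM in whole cells. These floors cover counting error only. The nuclei replicates were less alike than the whole-cell replicates, with a median absolute log2 difference over genes of 0.74 in nuclei, against 0.42 to 0.56 in the upper and 0.44 to 0.61 in the lower part. This was not compared at a common depth, and the smaller nuclei libraries carry more counting error. Organelle genes, left out of the results, summed to 147 and 1122 CPM in nuclei replicates 1 and 2, against 3.91 to 12.7 CPM in whole cells. These sums, and the ratios between nuclei replicates that follow, use total counts without TMM scaling. The TMM factors were 1.012 and 0.8597 in nuclei replicates 1 and 2, so that scaling would raise replicate 2 against replicate 1 in each ratio. Replicate 2 was thus 7.64-fold above replicate 1 in organelle counts, and the part of this difference in the genes below was not tested. Over 27033 RAP loci with at least 20 nuclei counts, 1105 (4.09%) were higher in replicate 2 than in replicate 1 by a factor of at least 4, and 1218 (4.51%) were lower by that factor.

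Most nuclear genes were found in both compartments. Counts were present in all 8 libraries for 28323 RAP loci. Both nuclei libraries and no whole-cell library held counts of 679 loci, and all 6 whole-cell libraries and no nuclei library held counts of 363 loci. At a common depth of 9250759 RAP counts, 32129 and 33738 loci were detected in nuclei, against 31053 to 32106 in whole cells. Both nuclei libraries stood above all whole-cell libraries, which gives the smallest p that 28 splits allow (exact permutation test, two-sided, p = 0.0357, 0.107 after adjustment over 3 library measures). The splits take all 8 libraries as independent, although upper and lower libraries of the same number deviated together. The p-values of these permutation tests may therefore be too small. The mean difference was 1343 loci. It was 2150 and 538 loci without nuclei replicates 1 and 2, where the 7 splits left cannot give a p below 0.143, and 1300 loci without upper replicate 2 (exact permutation test, p = 0.0952). When 10 counts were asked for, the difference was reversed at -139 loci (exact permutation test, p = 0.679).

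Of 31590 RAP loci tested, 4430 (14.0%) were called higher and 2767 (8.76%) lower in nuclei, 22.8% in all. Calls are from edgeR's quasi-likelihood test of nuclei against the mean of both parts on the log2 scale, at an adjusted p under 0.05 and with at least a 2-fold change. Against the upper part alone 19.8% were called, 10.9% higher and 8.87% lower, and against the lower part alone 15.4%, 10.0% higher and 5.38% lower. Both nuclei libraries stood above all 6 whole-cell libraries for 17.6% of the loci and below them for 17.7%, or 35.2% in either direction. The quartiles of the log2 fold change were -0.92 and 0.94, and 53.1% of the loci stood within 2-fold. TMM scaling centres the fold changes, so their median of -0.03 does not show whether levels moved as a whole. With library size as the only scaling it was -0.17. Upper and lower libraries with the same replicate number deviated together, and with that number as a block 5036 loci were called higher and 4367 lower. The block also joins nuclei replicates 1 and 2 with the parts of those numbers, a pairing that the labels do not give. Without nuclei replicate 1 the calls were 1906 higher and 405 lower, and without nuclei replicate 2 they were 3195 and 2054. In these fits the nuclei group is 1 library, which is assumed to vary as the whole-cell groups do, and this holds for every value below that leaves out a nuclei replicate.

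Loci called higher were found at all levels of expression, and loci called lower mostly at the middle and high levels. Loci were put into 10 equal groups by mean CPM over the 8 libraries. In the lowest group 18.0% were called higher and 1.55% lower, and in the highest group 16.4% were higher and 14.4% lower. The lowest group ran from 0.124 to 0.862 CPM, near the level of 3 counts in nuclei. A locus can pass the filter on low counts through the 2 nuclei libraries alone, and the depth in nuclei leaves little room for lower calls at this level. The split of calls in the lowest group is thus in part set by filter and depth, and nothing is read from it. Loci whose number ends in 00 (the regular RAP series) were called higher in 13.8% and lower in 8.32%, those ending in 50 in 14.5% and 11%, and those with other endings in 15.4% and 10.3%. By chromosome the share called higher ran from 9.68% on chromosome 12 to 16.1% on chromosome 1, and the share called lower from 6.9% on chromosome 3 to 10.4% on chromosome 6.

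**Figure D1:**
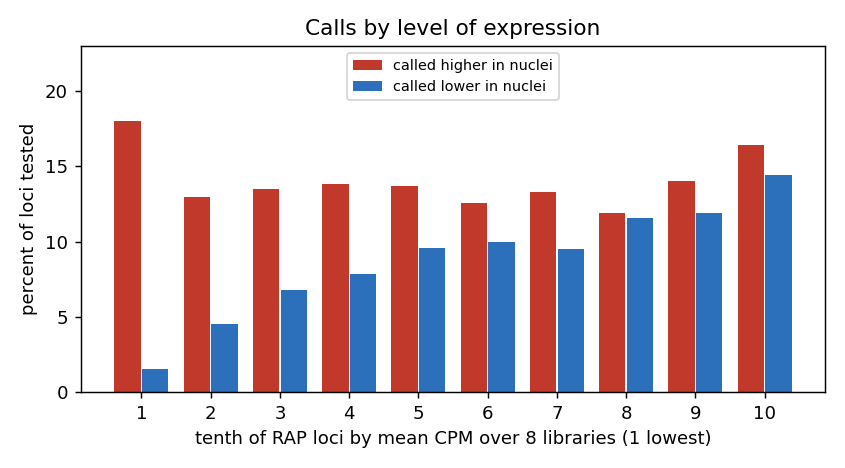
Percent of RAP loci called higher (red) and lower (blue) in nuclei than in whole cells, for 10 equal groups of the tested loci ordered by mean CPM over the 8 libraries. The share called higher stayed between 11.9% and 18.0%, while the share called lower was 1.55% in the lowest and 14.4% in the highest group. Shares in the lowest group are in part set by the filter and the depth in nuclei.

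The most abundant RNAs differed between the compartments. Of the 100 loci with the highest mean CPM in nuclei and the 100 highest in whole cells, 29 were in both lists. In the whole-cell list 73 loci had a lower mean in nuclei, 34 were called lower and 7 higher, and the median log2 fold change was -1.48. In the nuclei list 68 were called higher and the median was 2.42. These lists were chosen by level in the same libraries, so their direction is in part set by the choice and carries no test. The 100 most abundant loci of each library took 11.8% and 19.1% of its RAP counts in nuclei, against 8.61% to 17.3% in whole cells (exact permutation test, two-sided, p = 0.25, smallest possible 0.0357).

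Calls lay beside each other along the chromosomes more often than their overall share. The next tested locus in RAP order was also called higher for 1257 of 4429 loci called higher, or 28.4%, beside 14.0% over all loci. For loci called lower it was 615 of 2765, or 22.2%, beside 8.76%. RAP numbers follow the position on the chromosome, and whether neighbours share reads was not tested.

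The 241 RAP loci called higher in the upper than in the lower part had a median of 23.3 CPM in nuclei, against 38.2 CPM in upper and 2.56 CPM in lower libraries. Their nuclei mean was above the upper mean for 47 loci and below the lower mean for 13, and nearer to the lower part for 76. Against the mean of both parts, 86 of them were called higher and 9 lower in nuclei, beside 14.0% and 8.76% over all loci. The list was chosen from the same whole-cell libraries, so nothing is read from these counts. It came from edgeR's quasi-likelihood test of upper against lower libraries without the replicate block, so the pairing of the parts was not used.

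Known nuclear gene classes were then described by name. The count table gives RAP identifiers alone, and the gene table used as reference does not list them, so the names below are those of published rice nomenclature, recalled for this work and kept only where a cross-check held: the reference table places a gene of that name on the identifier's chromosome, and in 692 pairs of genes on 1 chromosome RAP numbers and positions never stood in different order. Of 152 listed genes, 113 passed and are used. The lists were chosen with earlier results of these data known. Class counts and medians beside those over all loci are therefore description and carry no test. This cross-check places a gene and does not prove the pairing, so each named member carries the limit that its name was not read from an annotation of these identifiers. Of the 111 members tested, 13 were called higher and 5 lower in nuclei, 16.2% in all, beside 22.8% over all loci, and their median log2 fold change was -0.17, beside -0.03. The other 2 members, OsYABBY4 and PIP2-3, did not pass the filter on low counts. With the replicate block 11 members were called higher and 23 lower, and the test against a 2-fold change called 3 and 2. Over all 31590 loci DESeq2 called 5151 higher and 4395 lower, and the replicate block 5036 and 4367. Class counts from these fits are to be set beside those counts and not beside the shares of the main fit. The sign of every class median was the same under RLE scaling and with library size alone, which shift all genes nearly alike. Against the upper part alone the median was 0.09 for MADS-box factors and 0.31 for chromatin genes.

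**Figure D2:**
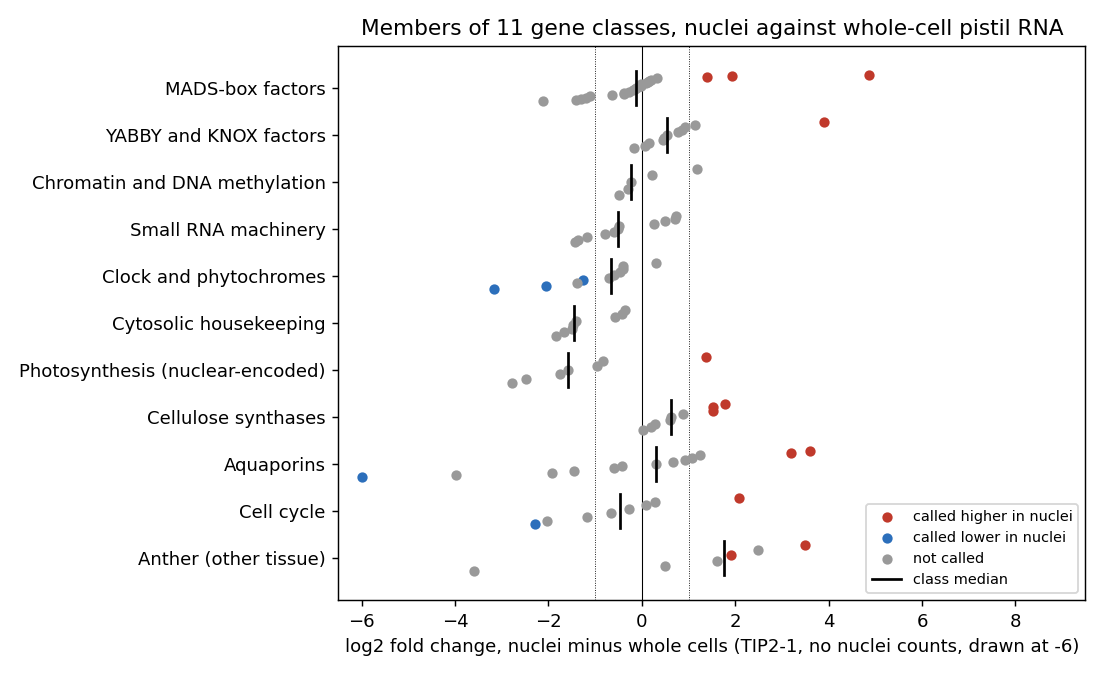
Log2 fold change of nuclei over the mean of both whole-cell parts for each tested member of 11 gene classes, with points coloured by call and a bar at the class median. TIP2-1 had no nuclei counts and is drawn at the edge of the axis. The dotted lines mark 2-fold. All members of the cytosolic housekeeping class stood left of 0 and all cellulose synthases right of 0.

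Most transcription factors of the MADS family, which specify floral organs and flowering time, stood within 2-fold, as did 53.1% of all loci. A missed call on 2 nuclei libraries does not show that levels were alike. Of 23 members, 3 were called higher and 0 lower, beside 14.0% and 8.76% over all loci, with 4 lower in edgeR at an unadjusted p under 0.05. DESeq2 called 3 lower and the replicate block 1, OsMADS3, beside 4395 and 4367 of all 31590 loci in these fits. Within 2-fold stood 15 members, and the median log2 fold change was -0.12. The genes that define the pistil were all present in nuclei. OsMADS58, a C-class gene of the carpel and meristem (Os05g0203800), had 794 and 441 CPM in nuclei, against 318 to 1010 CPM in whole cells with a median of 518. OsMADS13, the D-class gene of ovule identity (Os12g0207000), had 398 and 194 CPM in nuclei, against 175 to 569 CPM in whole cells with a median of 342. Both nuclei libraries lay inside the whole-cell range for these genes, with log2 fold changes of 0.16 and -0.14. OsMADS3, the other C-class gene (Os01g0201700), had 277 and 166 CPM in nuclei, against 417 to 715 CPM in whole cells with a median of 502, so the groups did not overlap (log2 fold change -1.30, SE 0.52, adjusted p = 0.094). OsMADS21, a D-class gene (Os01g0886200), had 43.5 and 53.1 CPM in nuclei, against 39.4 to 156 CPM in whole cells with a median of 123 (log2 fold change -1.10, adjusted p = 0.0989). DL, the YABBY gene DROOPING LEAF that specifies the carpel (Os03g0215200), had 271 and 292 CPM in nuclei, against 253, 460 and 365 CPM in upper and 61.9, 112 and 50.6 CPM in lower libraries. Its nuclei values lay within those of the upper part and above all of the lower part.

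The E-class genes, whose proteins join the organ identity factors in complexes, had unlike values, and differences between genes were not tested. OsMADS7 (Os08g0531700) had 548 and 813 CPM in nuclei, against 563 to 873 CPM in whole cells with a median of 674. OsMADS8 (Os09g0507200) had 217 and 421 CPM in nuclei, against 714 to 981 CPM in whole cells with a median of 852. OsMADS8 did not overlap between the groups and missed the call (log2 fold change -1.40, SE 0.57, adjusted p = 0.101), while OsMADS7 stood at -0.01. OsMADS16, the B-class gene of lodicules and stamens (Os06g0712700), had 30.3 and 163 CPM in nuclei, against 158 to 710 CPM in whole cells with a median of 370 (log2 fold change -2.12, SE 0.86, adjusted p = 0.0992).

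OsMADS50, a promoter of flowering related to SOC1 of Arabidopsis (Os03g0122600), rose most of the family. It had 355 and 159 CPM in nuclei, against 5.32, 4.91 and 14.6 CPM in upper and 8.01, 2.46 and 17.4 CPM in lower libraries. The lower nuclei value was far above the highest whole-cell value (log2 fold change 4.87, SE 0.63, adjusted p = 0.00101), and the call held in all 17 alternatives, with 4.18 without nuclei replicate 1. OsMADS56, its closest relative in rice (Os10g0536100), had 22.2 and 35.8 CPM in nuclei, against 14.7 to 41.3 CPM in whole cells with a median of 19.2, and was not called (log2 fold change 0.33). Of the genes of the SEPALLATA and FRUITFULL groups, OsMADS34, which acts in panicle and spikelet form (Os03g0753100), rose to 116 and 98.6 CPM in nuclei, against 6.69 to 81.2 CPM in whole cells with a median of 29.3 (log2 fold change 1.94, SE 0.38, adjusted p = 0.00745). OsMADS14, of the FRUITFULL group (Os03g0752800), had 110 and 76.8 CPM in nuclei, against 43.7, 53.4 and 77.4 CPM in upper and 18.4, 13.4 and 33.5 CPM in lower libraries (log2 fold change 1.40, SE 0.39, adjusted p = 0.0291). Neither was called against the upper part alone, where both reach their higher whole-cell levels. OsMADS34 also lost its call without nuclei replicate 1 (1.82), and OsMADS14 without any 1 of 6 libraries, all but upper replicate 3 and lower replicate 3, with fold changes of 1.11 to 1.62.

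Members of the YABBY family, which act in carpel and leaf form, and of the KNOX class, which keep meristem cells undetermined, mostly had positive values without passing the test. Of 11 tested, 10 had a positive log2 fold change, with a median of 0.53 that was 0.01 against the lower part alone. Beside 14.0% and 8.76% over all loci, 1 of 11 was called higher and 0 lower (no negative one at an unadjusted p under 0.05 and 0 lower in DESeq2). The replicate block called 0 higher and 0 lower, beside 5036 and 4367 of all 31590 loci. OSH1, a KNOX gene of the meristem (Os03g0727000), had 18.4 and 54.4 CPM in nuclei, against 2.94 to 37.0 CPM in whole cells with a median of 16.9 (log2 fold change 1.14, adjusted p = 0.168). OSH71 (Os05g0129700) had 20.9 and 21.2 CPM in nuclei, against 10.4, 2.32 and 1.58 CPM in upper and 24.9, 25.8 and 26.3 CPM in lower libraries, so the nuclei lay between the parts and nearer to the lower one, and it was called higher without upper replicate 1 (log2 fold change 1.56, adjusted p = 0.0161). OsYABBY5, a gene of spikelet meristem organization (Os04g0536300), was called on few counts, 21 in nuclei and 12 in whole cells. It passed the filter on low counts through the nuclei alone, where it is high, and was not called without that filter. It had 1.37 and 0.754 CPM in nuclei, against 0 to 0.194 CPM in whole cells with a median of 0.0452 (adjusted p = 0.0474), and 13 of 17 alternatives did not call it, DESeq2 and leaving out any 1 library but lower replicate 1 among them (3.39 to 4.22, and 5.70 without lower replicate 1).

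**Figure D3:**
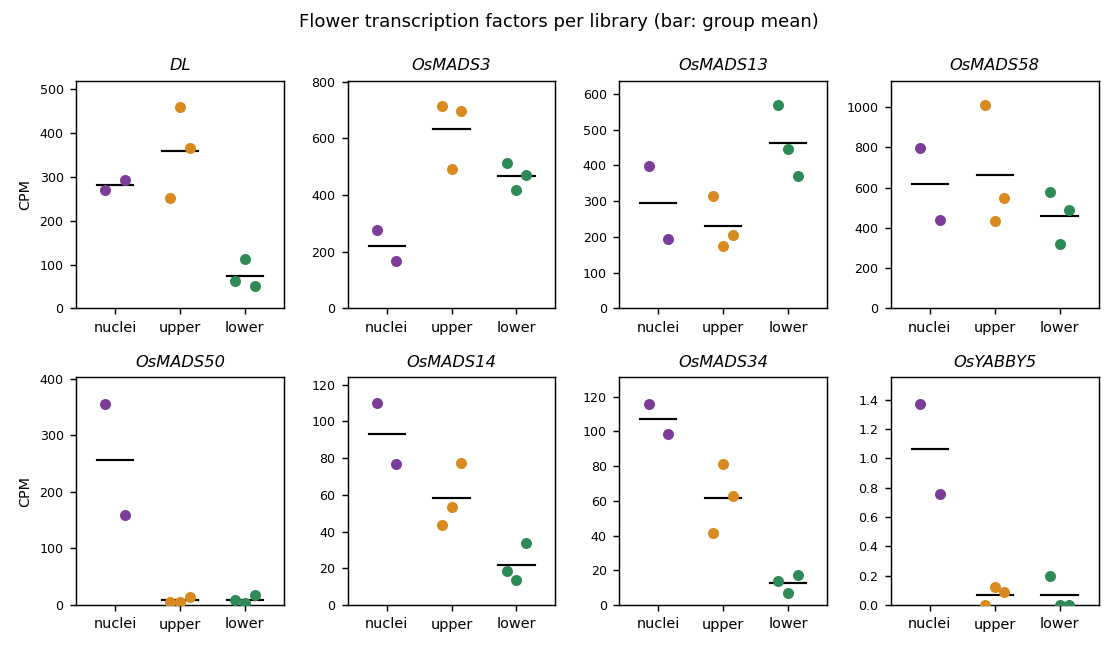
CPM of 8 flower transcription factors in each nuclei (purple), upper part (orange) and lower part (green) library, with a bar at the group mean. OsMADS50 stood at 355 and 159 CPM in nuclei, against at most 17.4 CPM in whole cells. DL in nuclei was at the level of the upper part and OsMADS3 was below both parts.

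Genes of chromatin and small RNA pathways, whose proteins act largely on DNA, histones or other RNAs, were found in nuclei. edgeR called none of the named members in either direction, beside 22.8% over all loci. For 5 genes of DNA methylation and Polycomb silencing the median log2 fold change was -0.23, with 0 called, 0 at an unadjusted p under 0.05 and 0 in DESeq2. The sign of this median turned without lower replicate 2 (0.03) and over all 12 listed genes, names not checked included (0.22, with 1 called higher). OsDRM2, the methyltransferase of the RNA-directed pathway (Os03g0110800), had 41.3 and 30.9 CPM in nuclei, against 33.1 to 55.2 CPM in whole cells with a median of 39.7. OsEZ1, a histone methyltransferase of the Polycomb complex (Os03g0307800), had 31.0 and 19.2 CPM in nuclei, against 30.3 to 42.1 CPM in whole cells with a median of 34.7. Of 11 small RNA genes 0 were called in edgeR, 1 was lower at an unadjusted p under 0.05, and DESeq2 called 1 lower. With the replicate block 3 were called lower, OsAGO1a, OsAGO1b and SHL2, an RNA-dependent RNA polymerase. Over all 31590 loci these 2 fits called 4395 and 4367 lower. The class median was -0.50, and 0.22 over all 15 listed names. The ARGONAUTE genes had values on both sides of 0, and differences between them were not tested. OsAGO1a, a slicer that binds microRNAs (Os02g0672200), had 41.9 and 79.7 CPM in nuclei, against 116 to 247 CPM in whole cells with a median of 142 and no overlap (log2 fold change -1.43, SE 0.51, adjusted p = 0.0646). OsAGO1b (Os04g0566500) had 155 and 195 CPM in nuclei, against 250 to 861 CPM in whole cells, also without overlap (log2 fold change -1.37, adjusted p = 0.173). Nuclei were below all whole-cell libraries for these 2 of 11 genes, beside 17.7% over all loci. OsPNH1, of the ARGONAUTE10 group (Os06g0597400), had 84.0 and 42.7 CPM in nuclei, against 7.72 to 101 CPM in whole cells (log2 fold change 0.71), and MEL1, the ARGONAUTE of the germline (Os03g0800200), had 4.83 and 5.65 CPM in nuclei, against 1.86 to 14.8 CPM in whole cells (log2 fold change 0.50).

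The plant clock is a loop of transcription factors that repress each other in turn over the day, and the time of sampling is not stated in the labels. Of 10 clock and phytochrome genes, 3 were called lower and 0 higher (0 at an unadjusted p under 0.05 and 0 in DESeq2), beside 8.76% called lower over all loci, and 9 had a negative log2 fold change, with a median of -0.65. The replicate block called 4 lower, beside 4367 of all 31590 loci. OsPRR95, a pseudo-response regulator of the daytime loop (Os09g0532400), fell to 19.9 and 41.1 CPM in nuclei, against 346, 379 and 278 CPM in upper and 226, 269 and 170 CPM in lower libraries. The groups were far apart (log2 fold change -3.16, SE 0.55, adjusted p = 0.00415), and the call held in all 17 alternatives, with -3.79 without nuclei replicate 2. OsPRR1, the rice TOC1 gene (Os02g0618200), fell to 43.8 and 40.6 CPM in nuclei, against 70.6 to 123 CPM in whole cells with a median of 108 (log2 fold change -1.26, SE 0.38, adjusted p = 0.0398). OsLHY, the morning MYB factor (Os08g0157600), had 7.56 and 14.6 CPM in nuclei, against 13.0 to 81.2 CPM in whole cells with a median of 48.6 (log2 fold change -2.05, SE 0.66, adjusted p = 0.0483). OsPRR1 lost its call without any 1 of 6 libraries, all but lower replicates 2 and 3 (fold changes -1.34 to -1.19), and OsLHY without any 1 of 7, all but lower replicate 1 (-2.59 to -1.65) and under RLE scaling. OsPRR1 was not called against the lower part alone, nor OsLHY against either part alone. The other regulators had smaller changes. OsGI, GIGANTEA (Os01g0182600), had 600 and 557 CPM in nuclei, against 612 to 1190 CPM in whole cells (log2 fold change -0.41). OsPRR37 (Os07g0695100) had 96.4 and 65.8 CPM in nuclei, against 47.3 to 129 CPM in whole cells (log2 fold change 0.31). OsPRR73 stood at -0.47 and OsELF3-1 at -0.60. Both nuclei libraries were below all whole-cell libraries for 4 of 10 genes, OsPRR95, OsPRR1, OsGI and OsELF3-1, beside 17.7% over all loci. PHYA, a light receptor (Os03g0719800), differed between the nuclei libraries, with 8.47 and 66.1 CPM, against 62.4 to 116 CPM in whole cells, and on replicate 1 alone its log2 fold change was -3.54, past the call.

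All 8 cytosolic housekeeping genes had negative log2 fold changes in nuclei, with a median of -1.45 beside -0.03 over all loci, but none passed the call. edgeR called 0, beside 8.76% called lower over all loci, with 4 below an unadjusted p of 0.05. DESeq2 and the replicate block each called 5 lower, beside 4395 and 4367 of all 31590 loci in these fits. Over all 16 listed names the median was -0.76. Both nuclei libraries were below all whole-cell libraries for 4 of the 8, beside 17.7% over all loci. GAPC3, a cytosolic glyceraldehyde-3-phosphate dehydrogenase of glycolysis (Os02g0601300), had 52.8 and 129 CPM in nuclei, against 145 to 381 CPM in whole cells with a median of 310 (log2 fold change -1.67, SE 0.58, adjusted p = 0.0624). Its relatives GAPC1 (Os08g0126300), with 69.4 and 281 CPM in nuclei against 286 to 754 CPM in whole cells, and GAPC2 (Os04g0486600), with 93.3 and 264 CPM in nuclei against 342 to 628 CPM in whole cells, were also below without overlap. TCTP, a translationally controlled tumour protein homologue (Os11g0660500), had 85.2 and 284 CPM in nuclei, against 395 to 711 CPM in whole cells with a median of 489 (log2 fold change -1.47, SE 0.61, adjusted p = 0.106). OsACT1, an actin (Os03g0718100), had 51.7 and 173 CPM in nuclei, against 119 to 767 CPM in whole cells (log2 fold change -1.84, SE 0.75, adjusted p = 0.0992), and REFA1, an elongation factor of translation (Os03g0177400), had 60.8 and 338 CPM in nuclei, against 165 to 389 CPM in whole cells (log2 fold change -0.42). In all 8 genes nuclei replicate 2 was above replicate 1, and the class sum was 534 and 1880 CPM in the nuclei, against 1720 to 3550 CPM in whole cells. Without replicate 1 the class median was -0.83, and REFA1 (0.34), FBA1, an aldolase (0.29), and TPI, a triose phosphate isomerase (0.02), stood above 0. Without replicate 2 the median was -2.42, with GAPC1 (-2.83) and TCTP (-2.59) past the call on 1 nuclei library. GAPC3 passed it without lower replicate 1 (-1.94). Replicate 2 also held the more organelle RNA, and the part of that difference in these values was not tested.

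Nuclear-encoded photosynthesis genes, which mark green tissue, showed a like pattern, with 6 of 7 members negative and a median log2 fold change of -1.58. edgeR called 1 higher and 0 lower, with 4 negative ones below an unadjusted p of 0.05, beside 14.0% and 8.76% called over all loci. DESeq2 called 3 lower and the replicate block 4, beside 4395 and 4367 of all 31590 loci in these fits. Over all 25 listed names the median was -0.83 and edgeR called 4 lower. CAB1R, a light-harvesting chlorophyll a/b protein (Os09g0346500), had 13.6 and 30.4 CPM in nuclei, against 34.6 to 491 CPM in whole cells with a median of 64.6 (log2 fold change -2.79, SE 1.16, adjusted p = 0.106). RCABP89, another chlorophyll a/b protein (Os03g0592500), had 4.10 and 13.4 CPM in nuclei, against 20.3 to 142 CPM in whole cells with a median of 26.5 (log2 fold change -2.49, SE 0.93, adjusted p = 0.0762). RCA, Rubisco activase (Os11g0707000), had 13.5 and 16.7 CPM in nuclei, against 20 to 128 CPM in whole cells with a median of 28 (log2 fold change -1.76, SE 0.78, adjusted p = 0.126). For these 3 of 7 genes both nuclei libraries were below all whole-cell libraries, beside 17.7% over all loci. Upper replicate 2 and lower replicate 2 held the highest levels of each, so the whole-cell spread was wide. Without lower replicate 1, CAB1R (-3.13), RCABP89 and another chlorophyll a/b gene, CAB2R (-1.80), were called lower, and RCABP89 also without lower replicate 3 (-2.80 to -2.69). RBCS-C, the Rubisco small subunit (Os12g0274700), had 3.19 and 15.5 CPM in nuclei, against 9.5 to 20.7 CPM in whole cells (log2 fold change -0.83), and passed the call on nuclei replicate 1 alone (-2.37). PSAH, a subunit of photosystem I (Os05g0560000), went the other way, with 67.8 and 66.8 CPM in nuclei, against 12.1 to 51.7 CPM in whole cells with a median of 23.1. It was called higher (log2 fold change 1.37, SE 0.42, adjusted p = 0.0413) and lost the call with library size as the scaling, against the lower part alone and without any 1 of 6 libraries, all but upper replicate 2 and lower replicate 2, with fold changes of 1.23 to 1.38. The summed CPM of the class was 130 and 204 in nuclei, against 210 to 1100 in whole cells.

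Cellulose synthases, the plasma membrane enzymes that spin the wall's cellulose, all had positive log2 fold changes, with a median of 0.62 over 9 genes. There were 3 called higher and 0 lower, beside 14.0% and 8.76% over all loci (0 lower at an unadjusted p under 0.05 and 0 in DESeq2). The replicate block also called 3 higher, beside 5036 of all 31590 loci. CESA6, of the primary wall (Os07g0252400), rose to 346 and 336 CPM in nuclei, against 74.4 to 198 CPM in whole cells with a median of 113 (log2 fold change 1.53, SE 0.37, adjusted p = 0.0179). CESA5 (Os03g0837100) rose to 140 and 232 CPM in nuclei, against 48.2 to 92.7 CPM in whole cells with a median of 61.0 (log2 fold change 1.53, SE 0.36, adjusted p = 0.0162). CESA4, of the secondary wall (Os01g0750300), had 22.9 and 11.2 CPM in nuclei, against 1.40 to 11.7 CPM in whole cells with a median of 4.57 (log2 fold change 1.79, SE 0.54, adjusted p = 0.0395). Its partners in the secondary wall complex were not called, with CESA7 (Os10g0467800) at 0.637 and 2.89 CPM in nuclei against 0.228 to 2.38 CPM in whole cells, and CESA9 (Os09g0422500) at 0.546 and 1.51 CPM in nuclei against 0.300 to 2.02 CPM in whole cells. Without nuclei replicate 2 the class median was -0.27. CESA5 then lost its call (1.11), as did CESA6 without nuclei replicate 1 (1.5), and CESA4 without any 1 of 6 libraries, all but upper replicate 2 and lower replicate 2 (1.17 to 2.20). CESA4 and CESA6 were not called against the lower part alone, nor CESA4 with library size as the scaling.

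Aquaporins, the channels that let water cross the plasma membrane (PIP) and the vacuolar membrane (TIP), had members called in both directions, at about the shares over all loci. Of 13 tested, 2 were called higher and 1 lower, beside 14.0% and 8.76%. The replicate block called 3 higher and 4 lower, beside 5036 and 4367 of all 31590 loci. The median log2 fold change of 0.31 turned to -0.09 without the filter on low counts and to -0.92 without nuclei replicate 2. PIP2-6 (Os04g0233400) rose to 215 and 466 CPM in nuclei, against 29.6, 39.2 and 21.0 CPM in upper and 47.5, 58.1 and 33.7 CPM in lower libraries. TIP1-1 (Os03g0146100) rose to 602 and 1700 CPM in nuclei, against 47.6, 199 and 79.7 CPM in upper and 59.7, 138 and 50.6 CPM in lower libraries. Nuclei were above all whole-cell libraries for 2 of 13 aquaporins, PIP2-6 and TIP1-1, and below them for 2, beside 17.6% and 17.7% over all loci. The calls of PIP2-6 and TIP1-1 held in all 17 alternatives. The log2 fold change of PIP2-6 was 3.19 (SE 0.40, adjusted p = 0.000847) and that of TIP1-1 was 3.6 (SE 0.63, adjusted p = 0.00421), and without nuclei replicate 2 they were 2.52 and 2.66. TIP2-1 (Os02g0658100) had 0 counts in both nuclei libraries, against 1653 in whole cells, at 14.1, 6.72 and 31.3 CPM in upper and 0.485, 1.99 and 10.1 CPM in lower libraries. Against a floor of 3 counts over the nuclei it was at least 48.1-fold lower than the mean of both parts on the log scale, from pooled counts over TMM-scaled library sizes (adjusted p = 0.0175). This bound was 28.8-fold without lower replicate 3, and 20.2-fold and 27.9-fold without nuclei replicates 1 and 2, where the call was lost with adjusted p up to 0.132. Its fitted change is no bound and is not given. PIP1-1, a plasma membrane channel (Os02g0666200), had 344 and 1280 CPM in nuclei, against 235 to 519 CPM in whole cells (log2 fold change 1.24, adjusted p = 0.13), and TIP1-2 (Os01g0975900) had 0.637 and 11.9 CPM in nuclei, against 3.33 to 249 CPM in whole cells (log2 fold change -3.99, SE 1.54, adjusted p = 0.0859). Nuclei replicate 2 stood above replicate 1 in both, and without lower replicate 1 TIP1-2 was called lower (-4.41).

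**Figure D4:**
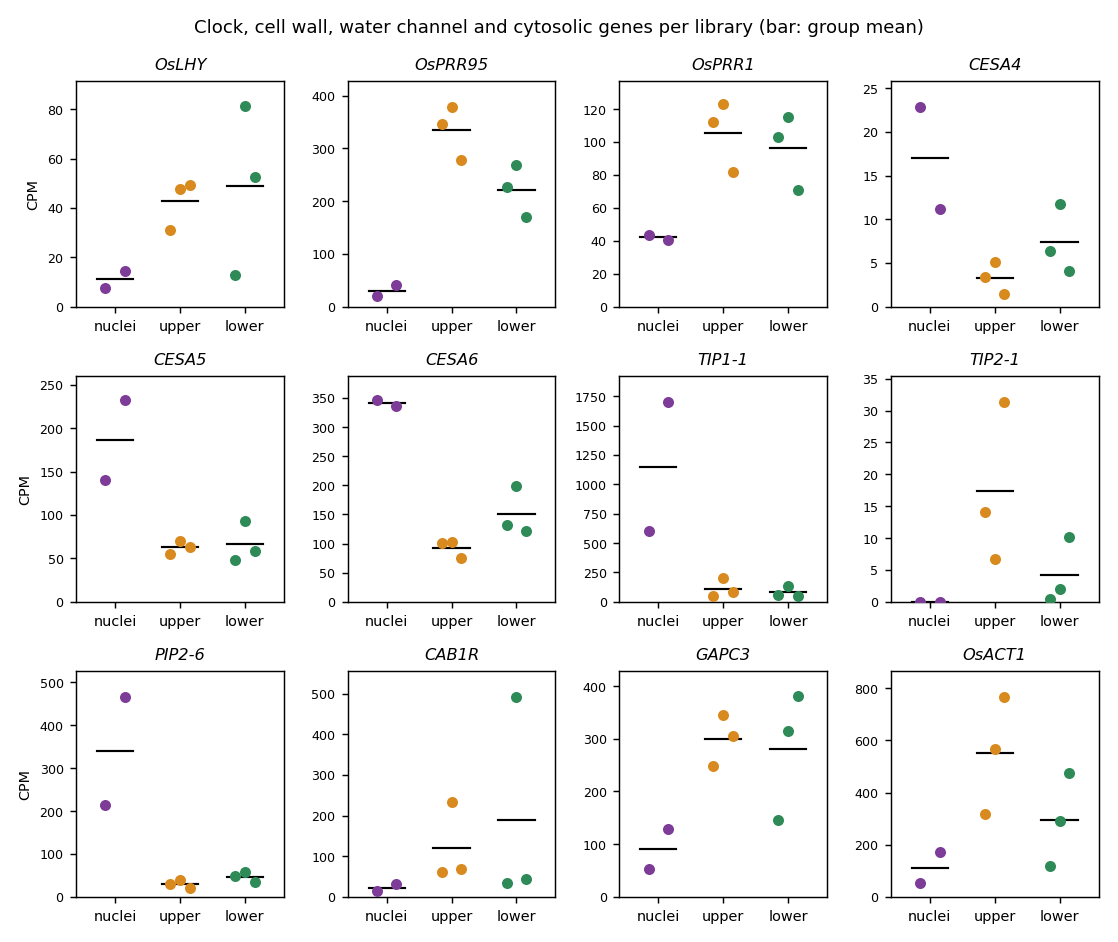
CPM of members of the clock, housekeeping, photosynthesis, cellulose synthase and aquaporin classes in each nuclei, upper part and lower part library, with a bar at the group mean. OsPRR95 was low in both nuclei libraries, at 19.9 and 41.1 CPM, and TIP1-1 was high in both, at 602 and 1700 CPM.

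Of 8 cell cycle genes, 1 was called higher and 1 lower, near the 14.0% and 8.76% over all loci. Their median log2 fold change was -0.47, and -1.23 against the lower part alone. The replicate block called 2 of these genes lower, beside 4367 of all 31590 loci. CDKA-2, a cyclin-dependent kinase (Os02g0123100), rose to 58.9 and 35.7 CPM in nuclei, against 7 to 18.2 CPM in whole cells with a median of 8.84 (log2 fold change 2.08, SE 0.43, adjusted p = 0.00956). Its relative CDKA-1 (Os03g0118400) had 57 and 41.8 CPM in nuclei, against 37.8 to 55.6 CPM in whole cells (log2 fold change 0.08). CYCB2-1, a mitotic cyclin (Os04g0563700), fell to 1.91 and 5.15 CPM in nuclei, against 6.28 to 39.5 CPM in whole cells with a median of 15.6 (log2 fold change -2.29, SE 0.71, adjusted p = 0.0435). CDKB2-1, a mitotic kinase (Os08g0512600), differed between the nuclei libraries, with 0.0911 and 21.2 CPM, against 5.69 to 45.9 CPM in whole cells, and on replicate 1 alone its log2 fold change was -7.47, past the call. CDKA-2 lost its call without nuclei replicate 1 (1.67), and CYCB2-1 without upper replicate 1 or either nuclei replicate (-3.17 to -1.73) and against the upper part alone.

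Of markers of another organ only 6 anther genes were listed, and these were low in all libraries. OsMADS16, the gene of lodicules and stamens above, was not among them. It had 158 to 710 CPM in whole cells and 30.3 and 163 CPM in nuclei. The summed CPM of 6 anther genes was 15.8 and 6.66 in nuclei, against 3.65 to 6.78 in whole cells. CYP703A3, a hydroxylase of the pollen wall pathway (Os08g0131100), had 8.29 and 2.89 CPM in nuclei, against 0.600 to 3.01 CPM in whole cells, and EAT1, a tapetal factor (Os04g0599300), had 0.820 and 1.38 CPM in nuclei on 20 counts, against 0 to 0.337 CPM in whole cells. Both were called higher (adjusted p = 0.0472 and 0.0481), 2 of 6 beside 14.0% over all loci, but not with the replicate block, and lost the call without any 1 of 6 libraries for CYP703A3, all but upper replicate 3 and nuclei replicate 2 (0.94 to 2.01), and without any 1 of 7 for EAT1, all but lower replicate 2 (3.08 to 3.91). EAT1 passed the filter on low counts through the nuclei alone, where it is high, so nothing is read from its call beside the share over all loci. Without that filter EAT1 was not called. TDR, the tapetal regulator upstream of EAT1 (Os02g0120500), had 0.0911 and 0 CPM in nuclei, 1 count in all, against 0.126 to 2.05 CPM in whole cells. None of the 6 anther genes exceeded 8.29 CPM in any library, and the part of anther RNA in other results was not tested.

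Among all called loci with a mean of at least 1 CPM in both nuclei and whole cells, 3355 higher and 1935 lower, the extremes were described by identifier, since no name was available. Os04g0340100, on chromosome 4, had 677 and 373 CPM in nuclei, against 4.53, 2.11 and 5.65 CPM in upper and 0.743, 0.829 and 1.44 CPM in lower libraries (log2 fold change 8.01, SE 0.50, adjusted p = 9.57e-05). Os11g0530700, on chromosome 11, had 31.5 and 19.2 CPM in nuclei, against 3.34, 4.70 and 2.85 CPM in upper libraries and 0 CPM in all 3 lower ones (adjusted p = 0.000253). The 0 CPM in lower libraries raises the fitted change of Os11g0530700 and with it its rank, so that change is not given. Its means were 25.4 CPM in nuclei and 1.81 CPM in whole cells. Both loci stood above every whole-cell library and kept their calls in all 17 alternatives. Os01g0675000, on chromosome 1, fell to 0.455 and 2.01 CPM in nuclei, against 757, 372 and 1720 CPM in upper and 8.79, 82.2 and 624 CPM in lower libraries (log2 fold change -8.62, SE 1.99, adjusted p = 0.0145). Os08g0561900, on chromosome 8, fell to 0.364 and 2.01 CPM in nuclei, against 860, 152 and 1450 CPM in upper and 14.6, 28.6 and 600 CPM in lower libraries (log2 fold change -8.50, SE 2.14, adjusted p = 0.0204). Both lost the call without either nuclei replicate, at -7.89 and -10.02 for Os01g0675000 and -7.70 and -10.16 for Os08g0561900, and stood at -7.43 and -6.85 without lower replicate 3.

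Genes with near-identical copies, such as the aquaporins PIP2-1, PIP2-4 and PIP2-5, the elongation factor REFA1 and the chlorophyll a/b and Rubisco small subunit genes, are uncertain, since reads could be split between copies. Reads of overlapping or antisense genes cannot be told apart either, since the sources used here do not say if counting used strand. Levels were compared between groups and not between genes, as no gene lengths were used.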

How the data were processed

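PolyA RNA was measured. Per the submitters' processing notes, reads were handled with STAR, featureCounts and DESeq2 on the build IRGSP-1.0. No versions are named, and the role of each tool is not given in these notes. The authors deposited 1 table of raw counts per feature, with no normalization. Each of the 8 columns carries the name of its sample, and 0 columns were unused.

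Counts were fitted by edgeR's quasi-likelihood method (edgeR 4.0.16, R 4.3.3), with TMM scaling, edgeR's filter on low counts and all 3 groups in 1 fit. The contrast was nuclei minus the mean of the upper and lower parts on the log2 scale. Benjamini-Hochberg adjustment ran over all features tested. Calls were made at an adjusted p under 0.05 with a log2 fold change of 1 or more in size. CPM values are the deposited counts over TMM-scaled library sizes. Sums over features left out and ratios between the nuclei replicates used total counts without TMM scaling. The fit was also run on simulated counts, and no result given here rests on that run. Library measures were compared by exact permutation tests, which do not use the pairing of the parts.

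The 17 alternatives were DESeq2 1.42.0, RLE scaling, library size alone, no filter, RAP loci alone, a test against a 2-fold change, each part alone, a replicate block, and each library left out. The members and lists were chosen with earlier results of these data known. Gene names were recalled from published rice nomenclature and checked by chromosome and order against the gene table of assembly ASM3414082v1, whose coordinates are not used otherwise. Of 152 listed names, 39 were left out because this check could not be made or did not hold. All checked class members were analysed, and the 2 highest and 2 lowest called loci with at least 1 CPM in both groups were taken by rule. Neighbours, top lists, upper-part loci and counts over all 152 names were added after the data were seen. No sequences were used.

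Nuclei and parts share replicate numbers 1 and 2, too few to take nuclei as paired with a part, and the labels name no shared source. Deviations from the group means correlated across genes at 0.352, 0.665 and 0.647 between upper and lower libraries of the same number, which pairs the parts. Blocked counts therefore stand beside the counts of calls in nuclei that they change. The block was fitted over all 8 libraries, so it also takes nuclei replicates 1 and 2 as paired. It is no allowance for the pairing of the parts alone.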

Additional observations from a re-analysis of the deposited data

Results flagged for a closer look

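Organelle genes, which are outside the comparison of nuclear loci, summed to 146.8 CPM in nuclei replicate 1 and 1122 CPM in nuclei replicate 2, against 3.91 to 12.7 CPM in the whole-cell libraries. Features with EPlORYSAT identifiers, also left out, summed to 35.09 CPM in nuclei replicate 1 and 164.1 CPM in nuclei replicate 2, against 0.366 to 1.88 CPM in the whole-cell libraries. Both were looked at again because the signal in nuclei was above the level in every whole-cell library, and both were higher in nuclei replicate 2. These sums use total counts without TMM scaling.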

How the results depend on the processing

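Against 4430 RAP loci called higher and 2767 lower, and 13 class members higher and 5 lower, DESeq2 called 4395 loci and 20 members lower. With library size alone 9 members were lower. Against a 2-fold change 2114 loci and 3 members were higher and 833 loci and 2 members lower. Against the upper part alone 3 members were lower, and against the lower part alone 1698 loci and 3 members. With the replicate number as a block 4367 loci and 23 members were lower. It changed no count of calls in chromatin genes or cellulose synthases. The correlation of deviations of same-numbered libraries was 0.116 and 0.381 for nuclei replicate 1 with upper and lower replicates 1, and 0.0375 and 0.21 for nuclei replicate 2 with upper and lower replicates 2. With each library left out, loci called higher ranged from 1906 to 4175 and lower from 405 to 3172, and members from 4 to 10 higher and 1 to 10 lower. The difference in loci detected ranged from 538 to 2150, and was -139 at 10 counts. The difference in the share of the 100 most abundant loci ranged from -0.203 to 7.10 percentage points, the lowest without nuclei replicate 2. The cause of these shifts was not tested. Of 18 members called, 4 (OsMADS50, PIP2-6, TIP1-1 and OsPRR95) kept the call in all 17 alternatives. Depth in nuclei limits calls of lower loci, since 3 counts stand at 0.273 and 0.377 CPM there.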
